A study of Mus musculus with 27 samples.

Results

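The comparison described here set C2C12 myotube cultures collected 42 h after a serum pulse against those collected 36 h after it. C2C12 is an established line of mouse myoblasts that fuse into myotubes when serum is withdrawn. The 6 libraries were chosen by the time point and replicate number in their titles, 3 at 42 h and 3 at 36 h, out of 27 libraries in the series, which holds 9 time points from 12 h to 60 h in 6 h steps. Total RNA was depleted of ribosomal RNA and sequenced from stranded libraries, and the values are whole reads per gene. Both groups share the whole history of the cultures: growth in 10% FBS, seeding of 50000 cells in each well, differentiation with horse serum at 2%, and the pulse, which was horse serum at 50% given for 2 h. The series rests on 1 cell line, and a culture without the pulse was not analysed here. Whether the 3 replicates of a time point were separate cultures is not in the labels. The p-values therefore refer to the spread among libraries, and that spread may be technical.

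The 42 h libraries held 21.4 to 23.8 M counts, and the 36 h libraries 19.0 to 23.4 M. The table lists 20446 genes, and 12687 of them passed the filter on low counts. Markers of skeletal muscle were abundant in every library. The 40 sarcomere genes summed to 37613 to 40750 CPM (counts scaled to the size of the library) at 42 h, against 40116 to 42832 CPM at 36 h. Markers of immune, endothelial and fat cells were at low levels, while those of neural and of bone and cartilage cells were not all low. Of 14 immune and endothelial markers 5 could be tested, with a sum of 3.62 to 4.59 CPM at 42 h, against 3.76 to 4.56 CPM at 36 h, and Cd3e and Tie1 were at 0 in the 6 libraries. Of 8 adipocyte markers 2 were tested, with a sum of 4.08 to 5.32 CPM at 42 h, against 3.85 to 4.56 CPM at 36 h, and Cidec and Retn were at 0. The 9 neural and glial markers summed to 169 to 190.4 CPM at 42 h, against 165 to 194 CPM at 36 h, and Snap25 and Sox10 were at 0. The 11 bone and cartilage markers summed to 1998 to 2614 CPM at 42 h, against 2023 to 2426 CPM at 36 h, and Acan and Ibsp were at 0. None of these 4 marker lists held a called gene.

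Between these collections 43 genes were higher at 42 h (0.339% of the genes tested) and 30 were lower (0.236%), together 73 genes or 0.575%, by edgeR's quasi-likelihood test at an adjusted p under 0.05. A further measure of scale is that 841 genes had an unadjusted p under 0.05. The changes were modest. The median log2 fold change was 0.54 among the genes called higher and -0.44 among those called lower, and 8 genes changed at least 2-fold, 7 of them upward. All 73 were protein-coding, and for all 73 the 3 libraries of 42 h lay outside the range of the 3 libraries of 36 h, which was so for 11.2% of all genes tested. Among the higher genes were the clock output Dbp, the growth factor Ereg, the matricellular factor Ccn2, the BMP antagonist Grem1, the aryl hydrocarbon receptor repressor Ahrr and the actin-binding Xirp2. Among the lower ones were the clock activator Arntl and the hypoxia-responsive genes Pdk1, Bnip3 and Ak4. In bulk RNA, fewer cells of a type and less RNA per cell cannot be told apart.

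The spread behind these calls was estimated from all 27 libraries, without the replicate number in the model. With that number added as a block, 179 genes were higher and 124 lower, the 73 among them. Of 53 named genes not called in the main fit, 21 were called with the block. When the 6 libraries were fitted alone, Xirp2 was the 1 gene called higher and Spon2 the 1 gene called lower. When each of the 6 libraries was left out in turn, 23 to 30 genes were called higher and 14 to 19 lower, and 25 of the 73 (16 higher and 9 lower) kept their call every time, while for other named genes the single libraries without which the call was lost are given beside them. The 36 h libraries resembled each other less (mean rank correlation over genes with the other libraries of their group 0.990 to 0.993) than they resembled the 42 h libraries (0.993 to 0.995). The labels name no batch, so time since the pulse and any effect of a collection cannot be told apart.

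**Figure D1:**
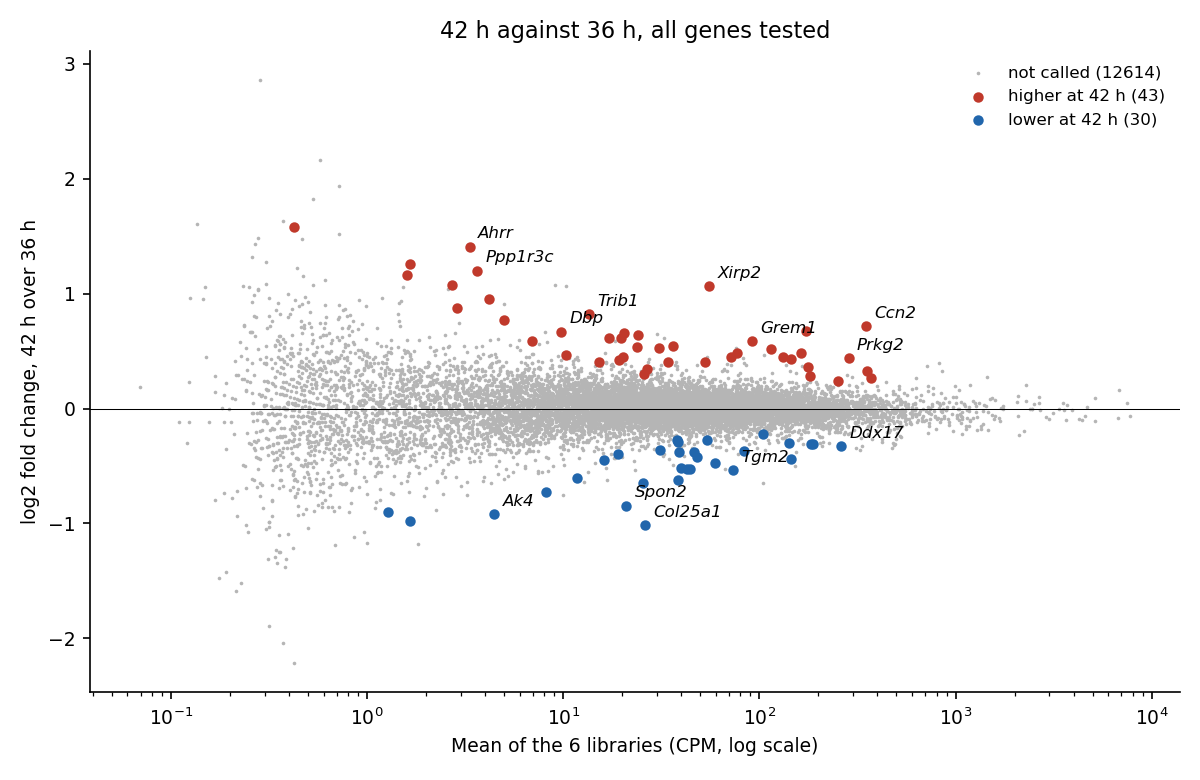
Each point is 1 of the 12687 genes tested, with its mean level in the 6 libraries in CPM on a log scale on the x axis and the log2 fold change of 42 h over 36 h on the y axis. The 43 genes called higher (red) and the 30 called lower (blue) lie mostly within 1 log2 unit of 0, and many grey points of low level lie farther out without being called.

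Serum pulses are used to set the circadian clocks of cultured cells to a common phase. In that clock CLOCK and BMAL1, the product of Arntl, bind E-boxes and drive the Per, Cry and Nr1d genes and the output gene Dbp, while REV-ERB proteins repress Arntl through elements that ROR receptors also bind. Other regulators that act in myotubes also read the state of the culture: HIF proteins, stabilised when oxygen is low, bind elements with a shared core, and the aryl hydrocarbon receptor (AHR) binds its own element and induces its repressor AHRR in a feedback loop.

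The promoter windows of 4 called genes are printed because each carries the core of the element named for its regulator. They are RefSeq windows on GRCm38.p6, from 250 bases before to 50 bases after a transcript start, 5′ to 3′ on the gene's strand, with matches in capitals on either strand. The motif searched was TAGGTNA for Arntl (shared by ROR and REV-ERB elements, in the downstream of its windows), ACGTG for Bnip3 and Slc16a3 (HIF elements) and GCGTG for Ahrr (AHR elements).
Arntl, chr7:113207261-113207560, plus strand: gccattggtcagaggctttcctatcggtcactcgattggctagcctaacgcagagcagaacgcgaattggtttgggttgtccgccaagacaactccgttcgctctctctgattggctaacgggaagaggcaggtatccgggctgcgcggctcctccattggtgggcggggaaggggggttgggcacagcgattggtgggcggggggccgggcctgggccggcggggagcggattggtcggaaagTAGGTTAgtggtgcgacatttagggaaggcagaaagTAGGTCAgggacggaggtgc
Bnip3, chr7:138909457-138909756, minus strand: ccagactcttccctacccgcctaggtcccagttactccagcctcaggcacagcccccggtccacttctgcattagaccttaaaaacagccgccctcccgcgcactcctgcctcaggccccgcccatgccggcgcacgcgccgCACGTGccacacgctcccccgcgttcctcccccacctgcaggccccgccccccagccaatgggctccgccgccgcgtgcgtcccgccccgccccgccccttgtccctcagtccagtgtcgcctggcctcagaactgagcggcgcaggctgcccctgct
Slc16a3, chr11:120948817-120949116, plus strand: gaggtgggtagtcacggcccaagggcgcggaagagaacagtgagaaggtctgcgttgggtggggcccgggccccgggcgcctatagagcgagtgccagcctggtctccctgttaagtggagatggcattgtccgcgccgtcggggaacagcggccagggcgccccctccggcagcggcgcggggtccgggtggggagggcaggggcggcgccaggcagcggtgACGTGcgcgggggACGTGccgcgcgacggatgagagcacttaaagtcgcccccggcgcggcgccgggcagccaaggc
Ahrr, chr13:74292282-74292581, minus strand: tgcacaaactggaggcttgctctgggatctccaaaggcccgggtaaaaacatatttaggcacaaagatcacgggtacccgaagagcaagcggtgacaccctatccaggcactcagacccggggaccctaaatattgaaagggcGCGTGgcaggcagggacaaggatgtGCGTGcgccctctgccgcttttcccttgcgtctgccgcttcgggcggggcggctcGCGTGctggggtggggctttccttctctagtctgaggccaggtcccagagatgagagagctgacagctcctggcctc

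These cores are short and common. Among the 12785 windows of genes tested, TAGGTNA was in 6.05%, ACGTG in 24.9% and GCGTG in 49.8%, each counted on both strands. Over all 32851 windows the shares were 8.29%, 19.6% and 32.4%. Arntl had matches that begin at -6 and 31 from the start, Slc16a3 at -27 and -14, and Ahrr at -107, -82 and -27. In Bnip3 the sole stretch, CACGTG at -108, is a palindrome and so also an E-box core, the 6 letters present in 9.75% of the windows of genes tested and 7.15% of all windows. Among genes tested that had a window, ACGTG was found for 15 of 20 members of the hypoxia list (75.0%), against 29.1% of all such genes. It was also found for 11 of 20 clock genes (55.0%), 40.6% of genes called higher and 34.8% of genes called lower. The AHR core GCGTG was found for 80.0% of the hypoxia list, against 55.9% of all such genes. These counts were not tested. The windows of Pdk1 held no ACGTG, and 1 of the 4 windows of Ak4 did. No CACGTG lay in the window of Dbp, and no TAGGTNA in that of Nr1d2.

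Within the clock, an E-box target and a REV-ERB gene were higher at 42 h, and Arntl, a gene that REV-ERB proteins repress, was lower. Of 25 clock genes, all tested, 2 were higher and 1 was lower (12% called, against 0.575% of all genes), with a list median of 0.06 against 0.00 for all genes. Dbp encodes a PAR bZIP factor that carries clock time to target genes. It stood at 12.1, 11.6 and 12.2 CPM at 42 h, against 7.06, 7.73 and 7.83 CPM at 36 h (replicates 1 to 3, as in all such sentences). The groups did not overlap, and Dbp was higher at 42 h (log2 0.67 ± 0.10, adjusted p = 0.000807; SE here and throughout). Nr1d2, which encodes REV-ERB beta, had 93.8, 88.5 and 86.8 CPM at 42 h, against 70.3, 62.5 and 59.4 CPM at 36 h. These groups too were apart, with the lowest library of 42 h above the highest of 36 h (log2 0.49 ± 0.09, adjusted p = 0.00944). Arntl had 33.5, 34.9 and 30.1 CPM at 42 h, against 46.7, 51.1 and 43.2 CPM at 36 h. It fell in every 42 h library below all libraries of 36 h (log2 -0.52 ± 0.10, adjusted p = 0.00747). On mm10 the genes are Dbp, ENSMUSG00000059824, chromosome 7 from 45705088 to 45710203; Nr1d2, ENSMUSG00000021775, chromosome 14 from 18204054 to 18239127; and Arntl, ENSMUSG00000055116, chromosome 7 from 113207465 to 113314126. The call for Arntl was lost without 42 h replicate 3 or 36 h replicate 2 (adjusted p = 0.0607 to 0.0696), and that for Nr1d2 without 42 h replicate 1 or 36 h replicate 2 or 3 (adjusted p = 0.070 to 0.0783).

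The period and cryptochrome genes were not called in the main fit, though Per2 and Per3 were called with the replicate number as a block. Per2, a repressor of CLOCK and BMAL1, had 11.1, 9.84 and 11.9 CPM at 42 h, against 6.61, 6.99 and 10.2 CPM at 36 h, so that its groups overlapped (log2 0.46, adjusted p = 0.403). Per3 had 20.3, 16 and 20.7 CPM at 42 h, against 14.6, 11.8 and 14.3 CPM at 36 h, without overlap but with a wide spread (log2 0.49, adjusted p = 0.53). Cry1, the partner of the PER proteins, had 23.7, 24.3 and 23.2 CPM at 42 h, against 20.9, 21.8 and 19.5 CPM at 36 h, also without overlap (log2 0.20, adjusted p = 0.53). For Tef, which encodes another PAR bZIP factor, the change was 0.23 on the log2 scale, and the groups were likewise apart (adjusted p = 0.483). Log2 fold changes of the remaining period, cryptochrome and REV-ERB genes were 0.29 for Per1, 0.19 for Cry2 and 0.39 for Nr1d1, and all 3 overlapped. Nfil3, which represses the targets of Dbp, was at -0.11, and the E-box repressors Bhlhe40 and Bhlhe41 at 0.23 and 0.04. The partners of BMAL1 were at -0.02 for Clock and -0.53 for the weakly expressed Npas2, while Arntl2, a paralogue of Arntl, was at 0.34. The ROR receptor genes stood at -0.13 for Rora and 0.05 for Rorb. Other members lay at -0.07 for Csnk1d, 0.06 for Csnk1e, 0.05 for Timeless, -0.02 for Ciart and 0.15 for Hlf, none of them called.

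**Figure D2:**
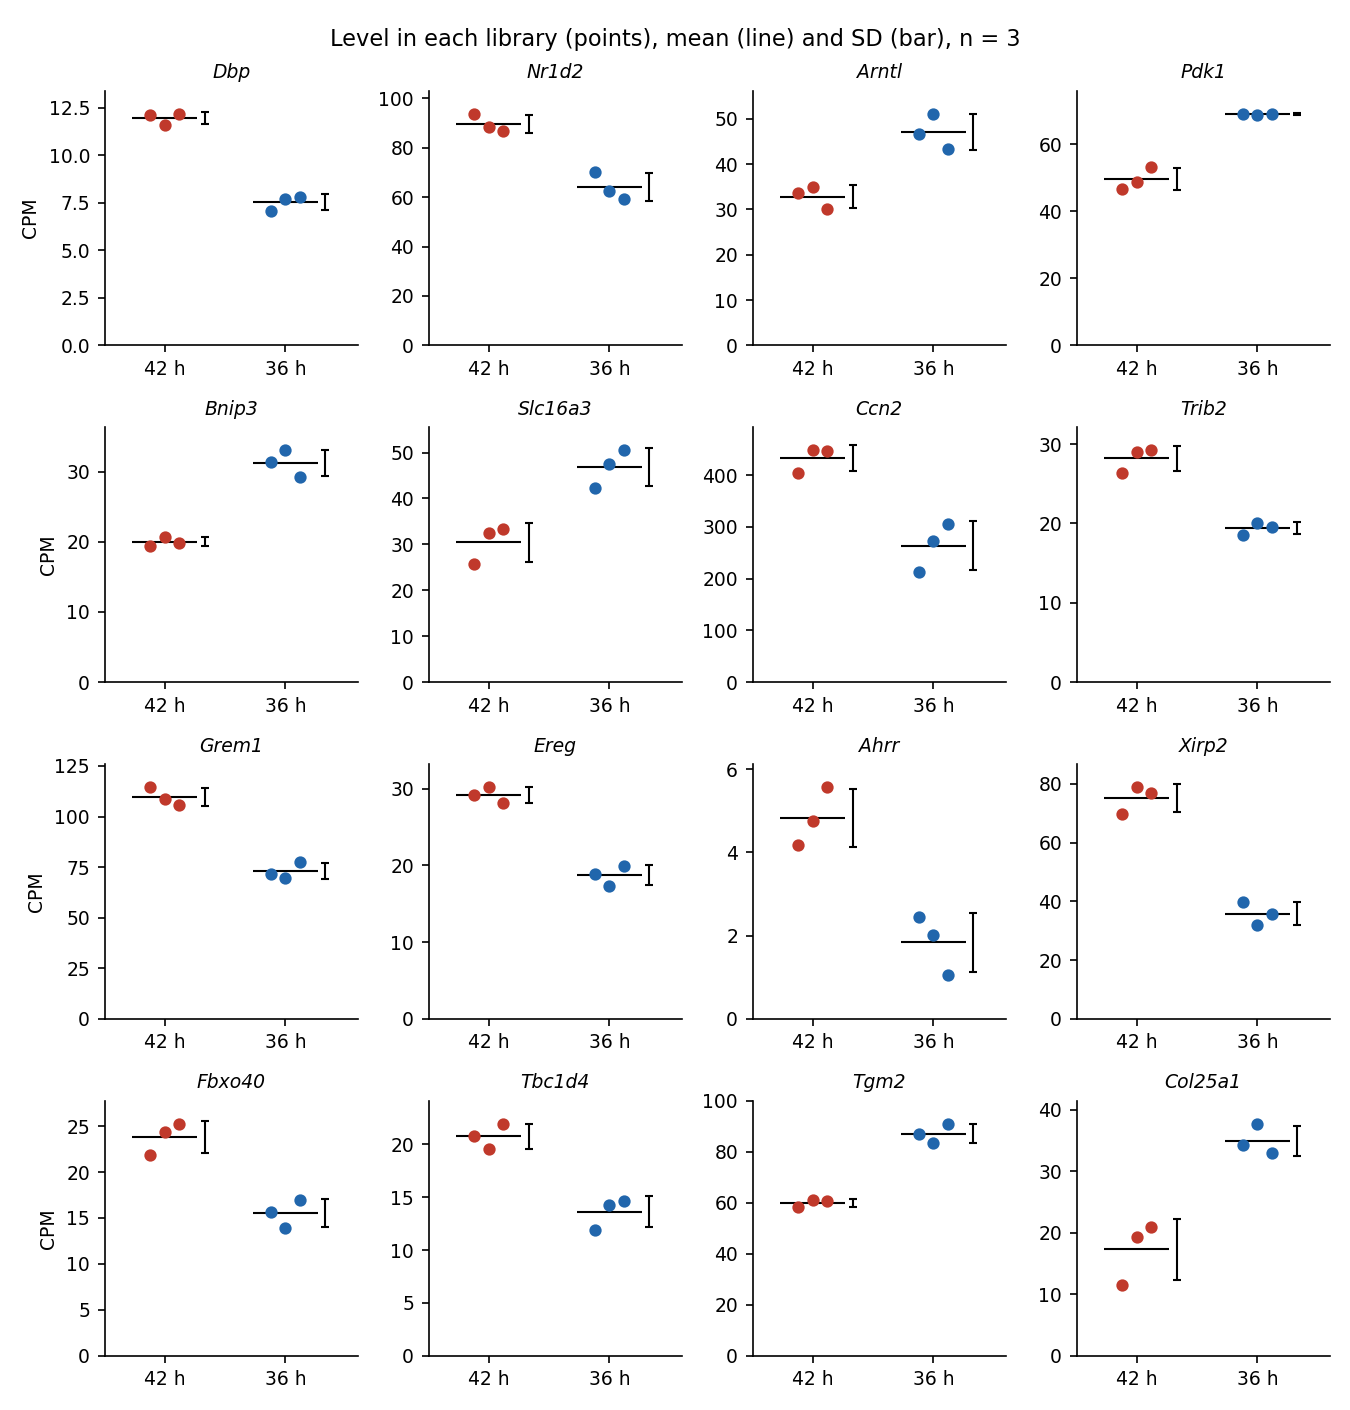
Levels in CPM of 16 genes in each library, with 42 h (red) left of 36 h (blue); points are libraries, lines are means and bars are SD (n = 3). The 16 were picked from the 73 called genes, in none of which the groups overlap, while 11.2% of all genes tested are without overlap. Dbp, for example, has 12.1, 11.6 and 12.2 CPM at 42 h, against 7.06, 7.73 and 7.83 CPM at 36 h.

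Pdk1, Bnip3 and Ak4, which HIF induces, fell at 42 h. Of 30 genes on that list 26 were tested, 3 were lower and 1 was higher (15.4% called, against 0.575% of all genes). Of the 26, 20 lay below 0 with a median of -0.19, against 6286 of all 12687 genes below 0. Their summed level was 1756 to 1882 CPM at 42 h, against 1936 to 2045 CPM at 36 h. Pdk1 encodes the kinase that shuts pyruvate dehydrogenase and so keeps pyruvate from the citric acid cycle. It had 46.8, 48.8 and 53.3 CPM at 42 h, against 69.1, 68.6 and 69.1 CPM at 36 h. The 36 h libraries were nearly equal, and all lay above those of 42 h (log2 -0.47 ± 0.08, adjusted p = 0.0023). Bnip3, whose product marks mitochondria for removal, had 19.4, 20.7 and 19.9 CPM at 42 h, against 31.4, 33 and 29.3 CPM at 36 h (log2 -0.64 ± 0.12, adjusted p = 0.00944). Ak4, a mitochondrial adenylate kinase, had 2.54, 2.94 and 3.74 CPM at 42 h, against 6.16, 6.03 and 5.29 CPM at 36 h (log2 -0.92 ± 0.20, adjusted p = 0.033). Each gene fell without overlap between the groups.

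Glycolysis genes leaned the same way with 1 call. All 29 were tested (3.45% called, against 0.575% of all genes). Of these, 24 lay below 0, against 6286 of all 12687 genes, and the median of the list was -0.09. Slc16a3 encodes MCT4, the transporter that exports lactate. It had 25.6, 32.5 and 33.2 CPM at 42 h, against 42.3, 47.6 and 50.5 CPM at 36 h, without overlap (log2 -0.62 ± 0.13, adjusted p = 0.0198). Pfkl, the liver form of phosphofructokinase, had 111, 136 and 129.7 CPM at 42 h, against 156, 202 and 175 CPM at 36 h, also apart but not called (log2 -0.50, adjusted p = 0.067). The gene positions on mm10 are Pdk1, ENSMUSG00000006494, chromosome 2 from 71873224 to 71903858; Bnip3, ENSMUSG00000078566, chromosome 7 from 138890836 to 138909519; Ak4, ENSMUSG00000028527, chromosome 4 from 101419277 to 101466995; and Slc16a3, ENSMUSG00000025161, chromosome 11 from 120948480 to 120960868. The call of Pdk1 was kept without any 1 library. That of Bnip3 was lost without 42 h replicate 1 or 3 or 36 h replicate 2 (adjusted p = 0.0524 to 0.0693), that of Ak4 without 42 h replicate 1 or 2 or 36 h replicate 1, 2 or 3 (adjusted p = 0.0652 to 0.231) and that of Slc16a3 without 42 h replicate 1 or 36 h replicate 2 or 3 (adjusted p = 0.0724 to 0.165).

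Pdk1, Bnip3, Ak4 and Slc16a3 alternated over the later time points. From 36 h on, at 36, 42, 48, 54 and 60 h, Pdk1 had mean levels of 68.9 ± 0.297, 49.6 ± 3.31, 64.7 ± 1.99, 44.7 ± 3.79 and 66.4 ± 6.83 CPM (SD, n = 3 each), and Bnip3 had 31.2 ± 1.87, 20.0 ± 0.642, 27.2 ± 1.71, 19.1 ± 2.03 and 31.8 ± 4.14 CPM. At the same time points Ak4 had 5.83 ± 0.470, 3.07 ± 0.613, 4.77 ± 0.754, 2.44 ± 0.431 and 5.47 ± 1.88 CPM. Slc16a3 had 46.8 ± 4.15, 30.5 ± 4.19, 40.0 ± 4.91, 29.8 ± 4.45 and 44.9 ± 3.84 CPM. All 4 were thus low at 42 h and 54 h and high at 36 h, 48 h and 60 h. The other steps gave values that differed between genes. At 54 h against 48 h Pdk1 was called lower (log2 -0.54, adjusted p = 0.000956), Bnip3 and Ak4 lay at -0.51 and -0.96 without being called, and Slc16a3 at -0.42. At 30 h against 24 h none of the 4 was called, with -0.13 for Pdk1, -0.40 for Bnip3, -0.03 for Ak4 and 0.07 for Slc16a3. At 18 h against 12 h Pdk1 was at 0.13, and the difference between the steps was called (log2 -0.60, adjusted p = 0.00216).

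Apart from Coch, whose mean level was under 1 CPM, Ahrr had the largest fold change of the 73 genes. It encodes a repressor that competes with AHR for its partner and is itself an AHR target. Levels were 4.17, 4.76 and 5.57 CPM at 42 h, against 2.45, 2.01 and 1.05 CPM at 36 h. The highest library of 36 h was well below the lowest of 42 h, though replicate 3 of 36 h was under the other 2 (log2 1.41 ± 0.21, adjusted p = 0.000886). The fold change lay between 1.11 and 1.68 on the log2 scale when single libraries were left out, and the call was kept each time. The gene (Ahrr, ENSMUSG00000021575, chromosome 13 from 74211118 to 74292331) was also called higher at 30 h against 24 h (log2 1.46, adjusted p = 0.000608) and at 54 h against 48 h (log2 1.47, adjusted p = 0.000758). At 18 h against 12 h it was not called (log2 0.27, adjusted p = 0.75). Of 7 AHR targets tested, Ahrr was the 1 called (14.3%, against 0.575% of all genes). Cyp1b1, a monooxygenase induced by AHR, had 77.6, 70.4 and 77.6 CPM at 42 h, against 65, 61.1 and 61.4 CPM at 36 h (log2 0.27, adjusted p = 0.264), and the median of the list was 0.10.

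Ccn2, a secreted product of YAP and TGF beta signalling, rose at 42 h, and the signal transducer Smad3 fell. Ccn2 (also named CTGF) is a matricellular protein made under YAP and TGF beta control. It had 404, 448 and 447 CPM at 42 h, against 213, 273 and 306 CPM at 36 h, a rise in which no library overlapped (log2 0.72 ± 0.10, adjusted p = 0.000807). The neighbours on the lists were less clear. Of 19 YAP and TEAD targets, Ccn2 was the 1 called (5.26%, against 0.575% of all genes), and the median of the list was 0.02. Crim1, a transmembrane BMP-binding protein, was at 0.26 (adjusted p = 0.121) and Ccn1, a relative of Ccn2, at 0.23 (adjusted p = 0.468). Of 21 TGF beta and activin genes tested, 1 was higher and 1 was lower (9.52% called, against 0.575% of all genes). The lower one was Smad3, the transcription factor that TGF beta receptors activate, with 117, 117 and 133 CPM at 42 h, against 169, 159 and 170.0 CPM at 36 h (log2 -0.44 ± 0.08, adjusted p = 0.0104). Inhba and Inhbb, which encode activin subunits, were at 0.44 and 0.19 (adjusted p = 0.363 and 0.239). Ccn2 kept its call without any 1 library, whereas Smad3 lost it without 42 h replicate 1 or 2 or 36 h replicate 1 or 3 (adjusted p = 0.0563 to 0.0931).

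Grem1, which encodes a secreted BMP antagonist, was higher, with 115, 109 and 106 CPM at 42 h, against 71.8, 69.7 and 77.4 CPM at 36 h. The groups did not overlap (log2 0.59 ± 0.08, adjusted p = 0.000381). At 18 h against 12 h it had been called in the other direction (log2 -0.65, adjusted p = 6.10e-06). Mean levels of Grem1 at 12, 18, 24, 30 and 36 h were 182 ± 8.94, 116 ± 5.32, 75.4 ± 7.26, 98.5 ± 1.41 and 73 ± 4 CPM, and at 42 h 109.6 ± 4.44 CPM. Wif1, which binds and blocks WNT ligands, was also higher, at 2.54, 2.38 and 1.79 CPM at 42 h, against 0.801, 0.688 and 1.44 CPM at 36 h (log2 1.16 ± 0.25, adjusted p = 0.0267). The call of Grem1 was kept without any 1 library, and that of Wif1 was lost without 42 h replicate 1 or 2 or 36 h replicate 1 or 2 (adjusted p = 0.113 to 0.18).

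Among immediate early and ERK feedback genes, 1 was higher and 1 was lower (5.56% called, against 0.575% of all genes). The list leaned upward, with 26 of 36 above 0 and a median of 0.15, against 6401 of all 12687 genes above 0. Ereg encodes epiregulin, a ligand of the EGF receptor family. It had 29.2, 30.2 and 28.1 CPM at 42 h, against 18.9, 17.3 and 19.9 CPM at 36 h, with a clear gap between the groups (log2 0.64 ± 0.10, adjusted p = 0.00247). Spry1, an inhibitor of receptor tyrosine kinase signalling, had 69.3, 78.8 and 71.6 CPM at 42 h, against 93.5, 95.3 and 95.3 CPM at 36 h. It fell without overlap (log2 -0.37 ± 0.06, adjusted p = 0.00339). Ier3 and Dusp5, induced by and feeding back on ERK, were at 0.35 and 0.34 and were not called (adjusted p = 0.115 and 0.436). Ptgs2, the inducible cyclooxygenase that starts prostaglandin synthesis, had 129, 139 and 137 CPM at 42 h, against 91.5, 97 and 93.6 CPM at 36 h, without overlap (log2 0.52 ± 0.09, adjusted p = 0.0032). It was the 1 gene called of 20 inflammation genes (5%, against 0.575% of all genes), whose median was 0.05. Il1rl1, the receptor of interleukin 33, was at 0.60 without a call (adjusted p = 0.173).

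Trib1, Trib2, Prkg2, Map3k5 and Mxd1 are single called genes, taken for the size of their change or picked with their values known, and stand for no list. Trib1 and Trib2 encode pseudokinases that direct proteins to ubiquitin ligases. Trib1 had 17.4, 17 and 17.4 CPM at 42 h, against 8.97, 9.53 and 10.8 CPM at 36 h (log2 0.82 ± 0.14, adjusted p = 0.00455), and Trib2 had 26.3, 29.1 and 29.2 CPM at 42 h, against 18.6, 20.1 and 19.5 CPM at 36 h (log2 0.54 ± 0.09, adjusted p = 0.0032). Prkg2, a cGMP-dependent kinase, had 328, 343 and 313 CPM at 42 h, against 235, 258 and 232 CPM at 36 h (log2 0.44 ± 0.07, adjusted p = 0.00195). Map3k5, the stress kinase ASK1, had 4.89, 3.08 and 3.19 CPM at 42 h, against 2.25, 1.64 and 2.14 CPM at 36 h (log2 0.88 ± 0.20, adjusted p = 0.041). All 4 rose, and in none did the groups overlap. Mxd1, a MAX partner that opposes MYC, fell, with 33.4, 35.4 and 36.6 CPM at 42 h, against 49.5, 50.8 and 51.9 CPM at 36 h (log2 -0.53 ± 0.09, adjusted p = 0.0036). Ereg, Spry1, Ptgs2, Trib1, Trib2, Prkg2 and Mxd1 kept their calls whichever library was left out, and Map3k5 lost it without 42 h replicate 1 or 3 or 36 h replicate 1, 2 or 3 (adjusted p = 0.0547 to 0.401).

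On the sarcomere list no gene of the 40 was called and 33 lay below 0 (median -0.06), against 6286 of all 12687 genes below 0. Single genes known from muscle were called in both directions. Those given here were taken for the size of their change or picked with their values known. Xirp2 encodes a Xin-repeat protein that binds actin at sites of force transmission. It had 69.8, 78.9 and 76.9 CPM at 42 h, against 39.8, 32.1 and 35.7 CPM at 36 h. The lowest of the 42 h libraries was far above the highest of 36 h (log2 1.07 ± 0.19, adjusted p = 0.00528). Nrap, a scaffold used in myofibril assembly, had 187, 181 and 202 CPM at 42 h, against 130.1, 127 and 152 CPM at 36 h (log2 0.48 ± 0.09, adjusted p = 0.00944). Lmod2, which extends actin thin filaments, had 82.6, 85.7 and 79 CPM at 42 h, against 55.2, 64.8 and 61.2 CPM at 36 h (log2 0.45 ± 0.09, adjusted p = 0.00944). Both rose without overlap. Fbxo40, a muscle ubiquitin ligase subunit that targets IRS1, had 21.8, 24.4 and 25.2 CPM at 42 h, against 15.6, 13.9 and 17 CPM at 36 h (log2 0.62 ± 0.09, adjusted p = 0.000833). Mylk2, the skeletal myosin light chain kinase, had 22.4, 22.8 and 25.2 CPM at 42 h, against 15.1, 17.3 and 19.1 CPM at 36 h (log2 0.45 ± 0.10, adjusted p = 0.033). Kbtbd12, which encodes a kelch-repeat protein, had 7.75, 9 and 8.29 CPM at 42 h, against 5.41, 5.98 and 5.25 CPM at 36 h (log2 0.59 ± 0.13, adjusted p = 0.0303), and Hdac9, a histone deacetylase that restrains MEF2, had 29.9, 28.7 and 30.8 CPM at 42 h, against 23.8, 24 and 22.9 CPM at 36 h (log2 0.34 ± 0.06, adjusted p = 0.00955). In each of these the 42 h libraries lay above all of 36 h.

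Lower muscle genes included Mymx and Dok7. Mymx encodes myomixer, a small membrane protein that myoblasts need for fusion, and had 47.2, 37.7 and 38.4 CPM at 42 h, against 55.9, 51.1 and 58.5 CPM at 36 h. It fell (log2 -0.43 ± 0.09, adjusted p = 0.0301). Of 17 myogenic factors tested it was the 1 called (5.88%, against 0.575% of all genes). Dok7, which activates the receptor kinase MuSK at the neuromuscular junction, had 40.2, 42.6 and 38.6 CPM at 42 h, against 53, 54.7 and 50.2 CPM at 36 h and fell as well (log2 -0.38 ± 0.08, adjusted p = 0.0267). Myog, the myogenin gene, was at -0.31 and Myf6, a late and here weakly expressed factor of the same family, at 1.06, neither of them called (adjusted p = 0.0622 and 0.0712). On the sarcomere list 3 genes had an unadjusted p under 0.05 upward and 2 downward. Myh4, a fast myosin heavy chain, was at 0.33, Actn3, a fast-fibre alpha-actinin, at -0.16, Klhl40, which stabilises thin filament proteins, at 0.23 and Mybpc2, a fast myosin-binding protein, at 0.13.

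Calls in these muscle genes depended on single libraries to different degrees. Fbxo40 kept its call throughout. Xirp2 lost it without 36 h replicate 2 (adjusted p = 0.0532). For Nrap this was so without 42 h replicate 3 or 36 h replicate 1 or 2 (adjusted p = 0.0698 to 0.0767), for Lmod2 without 42 h replicate 2 or 36 h replicate 1 (adjusted p = 0.0691 to 0.0954) and for Hdac9 without 42 h replicate 3 or 36 h replicate 3 (adjusted p = 0.0666 to 0.0696). The calls were also lost for Mylk2 without 42 h replicate 1, 2 or 3 or 36 h replicate 1 or 2 (adjusted p = 0.0762 to 0.251), for Kbtbd12 without any 1 of the 6 libraries (adjusted p = 0.0614 to 0.18), for Mymx without 42 h replicate 2 or 3 or 36 h replicate 1 or 3 (adjusted p = 0.122 to 0.215) and for Dok7 without 42 h replicate 1, 2 or 3 or 36 h replicate 1 or 2 (adjusted p = 0.0534 to 0.161). Xirp2 went on to 57.6 ± 20.1, 91.5 ± 14.1 and 109.6 ± 12.1 CPM at 48, 54 and 60 h, and Mymx to 44.5 ± 4.7, 31.4 ± 2.1 and 31.2 ± 0.949 CPM.

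Single genes of glucose, lipid and phosphate handling were called in both directions. Tbc1d4 encodes AS160, the brake on GLUT4 vesicles that AKT releases. It had 20.8, 19.6 and 21.9 CPM at 42 h, against 11.9, 14.3 and 14.6 CPM at 36 h, without overlap (log2 0.61 ± 0.08, adjusted p = 0.000621). Akt2, the AKT form that signals to glucose uptake, was slightly lower, at 91.9, 98.1 and 98.7 CPM at 42 h, against 112, 114 and 110.1 CPM at 36 h (log2 -0.22 ± 0.05, adjusted p = 0.0364). These were the 2 calls among 21 insulin signalling genes (9.52%, against 0.575% of all genes). Mgll, the lipase that splits monoacylglycerols, had 141, 156 and 159 CPM at 42 h, against 100.4, 113 and 121 CPM at 36 h (log2 0.45 ± 0.07, adjusted p = 0.0023). Ppp1r3c, which brings protein phosphatase 1 to glycogen, had 6.07, 5.13 and 3.95 CPM at 42 h, against 2.7, 1.96 and 1.92 CPM at 36 h (log2 1.20 ± 0.26, adjusted p = 0.0267). Slc20a1, a phosphate importer, had 206, 197 and 198 CPM at 42 h, against 161, 149.7 and 156 CPM at 36 h (log2 0.37 ± 0.07, adjusted p = 0.00528). Mgll, Ppp1r3c and Slc20a1 all rose without overlap. Acsl6, which activates long-chain fatty acids, fell (log2 -0.27 ± 0.06, adjusted p = 0.0352), and Txnrd1, the thioredoxin reductase induced by NRF2, rose (log2 0.24 ± 0.05, adjusted p = 0.0303). Txnrd1 was the 1 call among 22 NRF2 and glutathione genes (4.55%, against 0.575% of all genes). Gclc, for glutathione synthesis, was at 0.19 (adjusted p = 0.436). Tbc1d4 and Mgll kept their calls without any 1 library. Slc20a1 lost it without 36 h replicate 2 (adjusted p = 0.0607), Ppp1r3c without 42 h replicate 1 or 2 or 36 h replicate 2 or 3 (adjusted p = 0.0933 to 0.166), and Akt2, Acsl6 and Txnrd1 each without any 1 of the 6.

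Among the genes called lower were Tgm2, Angpt4, Col25a1, Adamts4 and Spon2, for matrix or other extracellular proteins, while no gene of the 42 tested on the collagen and matrix list was called (median 0.05). Tgm2, the transglutaminase that cross-links matrix proteins, had 58.2, 61.1 and 60.5 CPM at 42 h, against 86.9, 83.5 and 90.9 CPM at 36 h. It fell without overlap (log2 -0.54 ± 0.07, adjusted p = 0.000381), an adjusted p shared with Grem1 and Angpt4 and the smallest of the comparison. Angpt4, a ligand of the endothelial receptor TIE2, had 37.6, 35.2 and 35.7 CPM at 42 h, against 52.4, 53 and 50.7 CPM at 36 h (log2 -0.52 ± 0.07, adjusted p = 0.000381). Col25a1, a membrane collagen that developing mouse muscle needs to receive motor axons, had 11.6, 19.3 and 21 CPM at 42 h, against 34.2, 37.7 and 33 CPM at 36 h (log2 -1.02 ± 0.14, adjusted p = 0.000621). Its change was the largest among genes called lower, and replicate 1 of 42 h was under the other 2. Adamts4, an aggrecan-cleaving protease, had 159, 166 and 167 CPM at 42 h, against 201, 203 and 204 CPM at 36 h (log2 -0.30 ± 0.05, adjusted p = 0.0036). Spon2, a spondin of the matrix, had 15, 15.9 and 13.9 CPM at 42 h, against 26.6, 28.3 and 25.8 CPM at 36 h (log2 -0.85 ± 0.15, adjusted p = 0.00688). All 5 fell with the groups apart. On the collagen and matrix list those with the smallest p were Col8a1 at 0.27, Timp3 at 0.37, Timp1 at 0.39 and Col8a2 at 0.26. Mcam, an adhesion molecule of smooth muscle and endothelium, was at 0.35, and none of 9 smooth muscle markers was called. Tgm2, Angpt4, Col25a1 and Adamts4 kept their calls without any 1 library, and Spon2 lost it without 42 h replicate 3 (adjusted p = 0.0553).

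Some of the largest changes were in genes of low level or of other functions. Mtus2, which binds microtubules, had 3.49, 4.15 and 3.32 CPM at 42 h, against 1.75, 2.17 and 1.31 CPM at 36 h (log2 1.07 ± 0.21, adjusted p = 0.0104). Armh4 had 5.44, 5.13 and 6.04 CPM at 42 h, against 3.36, 2.75 and 2.49 CPM at 36 h (log2 0.95 ± 0.18, adjusted p = 0.0104). B3galt2, a galactosyltransferase, had 2.76, 2.29 and 1.96 CPM at 42 h, against 1.25, 0.741 and 0.918 CPM at 36 h (log2 1.26 ± 0.27, adjusted p = 0.0267). All 3 rose without overlap, at levels where few reads stand behind each value. Among the lower genes, Insc, which orients the mitotic spindle, had 6.48, 6.25 and 5.74 CPM at 42 h, against 9.72, 10.2 and 10.7 CPM at 36 h (log2 -0.73 ± 0.15, adjusted p = 0.0232). Fam107a, an actin-associated protein gene, had 9.06, 10.0 and 9.01 CPM at 42 h, against 13.4, 15 and 14.4 CPM at 36 h (log2 -0.61 ± 0.10, adjusted p = 0.0023). Ttc39a had 1.31, 1.07 and 0.935 CPM at 42 h, against 2.1, 2.28 and 2.19 CPM at 36 h (log2 -0.98 ± 0.17, adjusted p = 0.00455), and Tsacc, a co-chaperone gene, had 0.815, 0.70 and 1.15 CPM at 42 h, against 1.6, 1.85 and 1.57 CPM at 36 h (log2 -0.90 ± 0.21, adjusted p = 0.0475). Fam107a kept its call without any 1 library. The others lost it, Mtus2 without 42 h replicate 2 or 36 h replicate 1 or 3 (adjusted p = 0.0559 to 0.101), Armh4 without 42 h replicate 3 or 36 h replicate 2 or 3 (adjusted p = 0.0663 to 0.0901), B3galt2 without 42 h replicate 1 or 2 or 36 h replicate 2 or 3 (adjusted p = 0.0862 to 0.168), Ttc39a without 42 h replicate 3 (adjusted p = 0.0515), Tsacc without 42 h replicate 1 or 2 or 36 h replicate 1, 2 or 3 (adjusted p = 0.101 to 0.299) and Insc without any 1 of the 6 libraries (adjusted p = 0.0583 to 0.146).

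Other called genes included Ddx17, an RNA helicase, with 232, 233 and 231 CPM at 42 h, against 285, 296 and 294 CPM at 36 h. The 3 libraries of each time point were close together, and Ddx17 fell (log2 -0.33 ± 0.05, adjusted p = 0.000621). Gpr176, a receptor known from the mouse central clock, rose (log2 0.54 ± 0.08, adjusted p = 0.00141), as did Slco5a1, of a family of organic anion transporters (log2 0.66 ± 0.10, adjusted p = 0.00204), and Klhdc8a (log2 0.43 ± 0.07, adjusted p = 0.0032). Rflnb, which binds filamin, fell (log2 -0.31 ± 0.06, adjusted p = 0.00528). Of these 5, Rflnb alone lost its call, without 42 h replicate 2 (adjusted p = 0.0525). The libraries are stranded, but whether the counting used strand is not given in the sources used here. Exons of another gene on the opposite strand cover 18.0% of the exonic bases of Dbp (Sphk2) and 23.2% of Ccn2 (Gm15270). They cover 24.4% of Spry1 (Gm42922), 22.3% of Bnip3 (Gm45507) and 13.7% of Tgm2 (Gm20412, with 8.03% for Rprd1b). For named genes not called, the shares included 18.3% of Fdft1 (Ctsb), 21.3% of Timp3 (Syn3), 22.1% of Dusp5, 21.6% of Klhl40 and 19.0% of Bhlhe41. Reads of such pairs may not be separable, and smaller overlaps of other named genes are not given.

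Several lists leaned one way without a called gene in the main fit. For cholesterol synthesis 23 of 25 genes lay below 0 (median -0.13), and the 4 with the smallest p, the enzyme genes Fdft1, Hsd17b7, Lss and Sqle, were at -0.25, -0.30, -0.27 and -0.17. Their summed level was 4249 to 4286 CPM at 42 h, against 4707 to 4772 CPM at 36 h. Interferon response genes lay below 0 in 24 of 30 (median -0.18), with the transcription factor gene Irf1 at -0.20, Oasl2 at -0.57, Gbp2 at -0.43 and the nucleic acid sensor gene Zbp1 at -0.60. The 23 replication-dependent histone genes were all below 0 (median -0.30), with 1 at an unadjusted p under 0.05, and members of that family are near copies whose reads the counting could have split. DNA replication genes lay below 0 in 27 of 29 (median -0.09). Proliferation and mitosis genes were even, with 17 of 35 above 0 and a median of 0.00. Respiratory chain genes lay below 0 in 41 of 50 (median -0.08) and cytosolic ribosomal protein genes in 47 of 67 (median -0.05). For all 12687 genes, 6286 lay below 0. Genes within a list share regulation and libraries, and these counts were not tested.

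**Figure D3:**
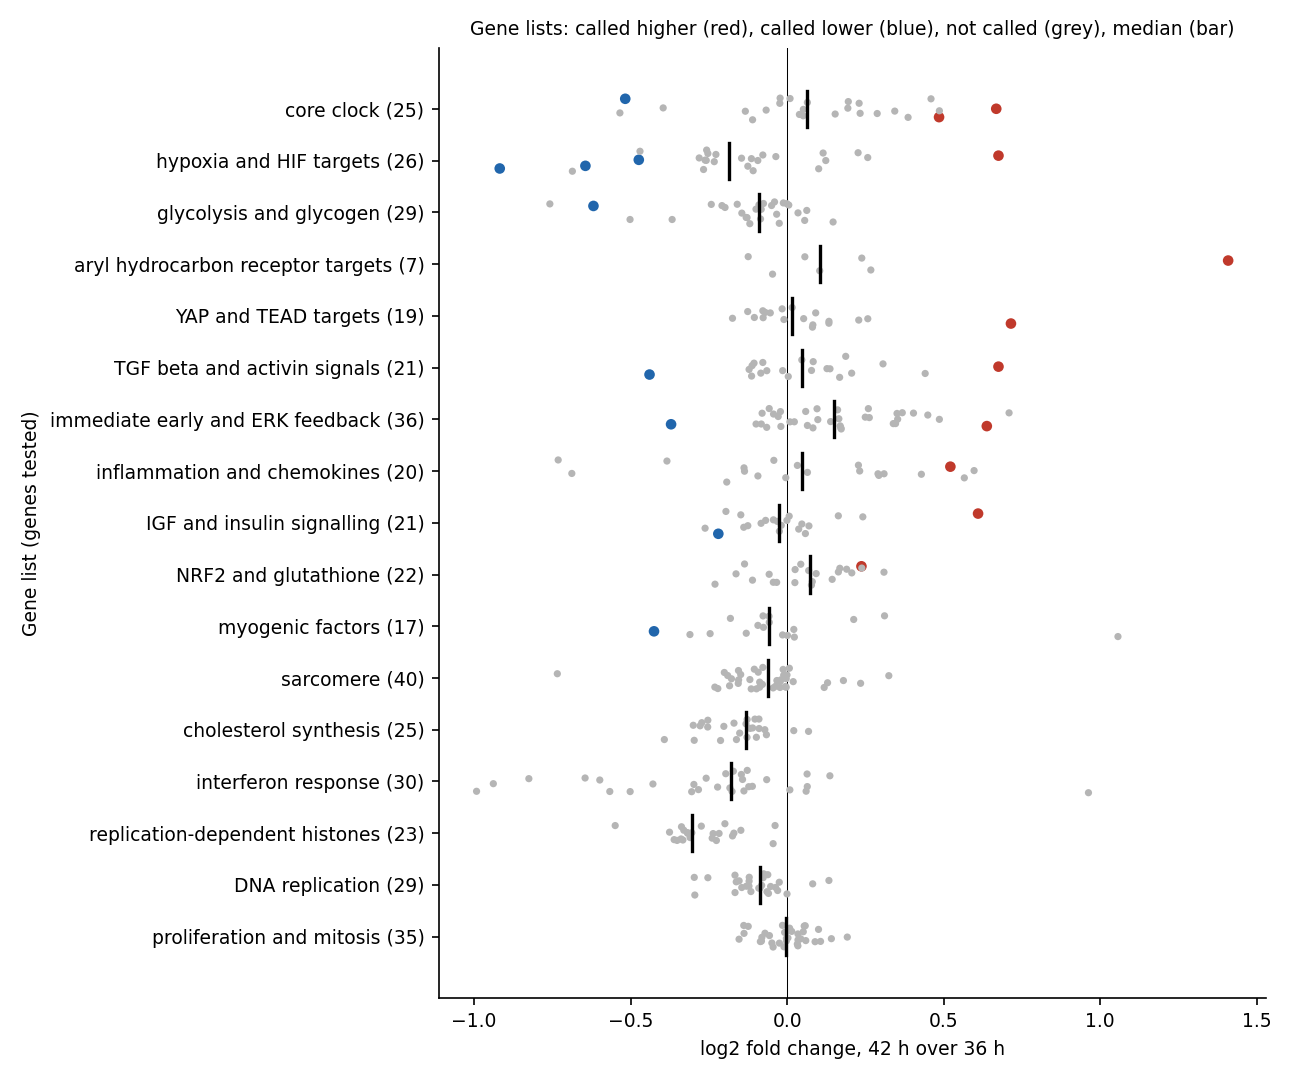
Log2 fold change of 42 h over 36 h (x axis) for each tested gene of 17 lists (y axis, number of genes tested in brackets), with called genes in red (higher) or blue (lower), other genes in grey and the list median as a bar. The median of the hypoxia list is -0.19 and that of the histone list -0.30, while that of the sarcomere list is -0.06.

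The step from 12 h to 18 h stands 24 h earlier and uses other libraries, though all steps share the spread estimated over the series. There 645 genes were called (5.08%), 353 higher and 292 lower. Of the 73 genes called at 42 h against 36 h, 51 had the same sign at 18 h against 12 h (69.86%, against 52.16% of all genes tested), 14 were called in the same direction and 9 in the opposite one. Of the 25 clock genes, 3 were called higher and 1 lower at 18 h against 12 h. The 3 clock genes called at 42 h against 36 h were called the same way in both steps. Dbp was called higher there (log2 0.65, adjusted p = 9.36e-05), as was Nr1d2 (log2 0.37, adjusted p = 0.0154), while Arntl was called lower (log2 -0.41, adjusted p = 0.00963). Ccn2 (log2 0.62, adjusted p = 0.000431), Trib2 (log2 0.78, adjusted p = 1.52e-05) and Fbxo40 (log2 0.54, adjusted p = 0.000578) were also higher in both steps, and Ddx17 was lower in both (log2 -0.42, adjusted p = 2.26e-06).

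A direct test of the difference between these steps called 322 genes (2.54%), 125 above 0 and 197 below, and 23 of the 73 were among them. This difference holds the change at 42 h against 36 h by which the 73 were called, so the 23 are no independent support. The difference was 0.02 for Dbp, 0.11 for Nr1d2 and -0.10 for Arntl, and none of the 3 was called. For Angpt4 it was -2.08 (adjusted p = 4.84e-12), and that gene had been called higher at 18 h against 12 h (log2 1.55, adjusted p = 3.45e-12). Among all genes with a mean of at least 1 CPM, those with the smallest p for the difference after Angpt4 and Grem1 were Srpx2, a secreted sushi-repeat protein gene, Cenpf and Aspm, which act in mitosis, and Cilp, a cartilage matrix protein gene. Their changes at 42 h against 36 h were -0.10, -0.01, -0.08 and -0.19, none called, against 0.76, 1.07, 1.13 and 1.29 at 18 h against 12 h, all called.

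The later step from 48 h to 54 h, which also shares no library with this one, called 28 genes (0.221%), and 18 of them (64.3%) were among the 73 and went the same way, or 24.7% of the 73. A match in sign was found for 67 of the 73 (91.78%, against 59.2% of all genes tested). Dbp and Nr1d2 were the 2 called in the opposite direction there (-0.96 and -0.44), and Col25a1 was among those called lower in both (log2 -1.41, adjusted p = 1.09e-05). At 30 h against 24 h, where 94 genes were called (0.741%), 16 of the 73 were called the same way, all of them higher, and 2 the opposite way, again Dbp and Nr1d2 (-1.27 and -0.45). Ccn2 (log2 0.86, adjusted p = 6.17e-05), Mgll (log2 0.87, adjusted p = 2.72e-07), Gpr176 (log2 0.79, adjusted p = 9.67e-06) and Klhdc8a (log2 0.49, adjusted p = 0.000691) were among the 16.

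Libraries of 18, 30 and 54 h were also set against those of 12, 24, 48 and 60 h, none of which is in the comparison of 42 h with 36 h. This contrast of alternate collections called 193 genes (1.52%), 121 higher and 72 lower at 18, 30 and 54 h. Of the 73 genes 28 were called the same way in it (38.4%; 14.5% of the 193) and 3 the opposite way, and 63 had the same sign (86.3%, against 57.29% of all genes tested). Among the 28 were Ahrr (log2 0.94, adjusted p = 5.61e-05), Ccn2 (log2 0.46, adjusted p = 5.61e-05), Kbtbd12 (log2 0.52, adjusted p = 0.000341) and, on the lower side, Bnip3 (log2 -0.43, adjusted p = 0.000677), Pdk1 (log2 -0.28, adjusted p = 0.000499) and Col25a1 (log2 -0.57, adjusted p = 0.000267). Dbp was called in the opposite direction (log2 -0.44, adjusted p = 5.61e-05), and Arntl was not called (log2 -0.09, adjusted p = 0.603). That collections alternate in these data was known when the contrast was chosen, and it is no independent support. Neither a batch of collections nor handling is named in the labels, and their part in these values was not tested.

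**Figure D4:**
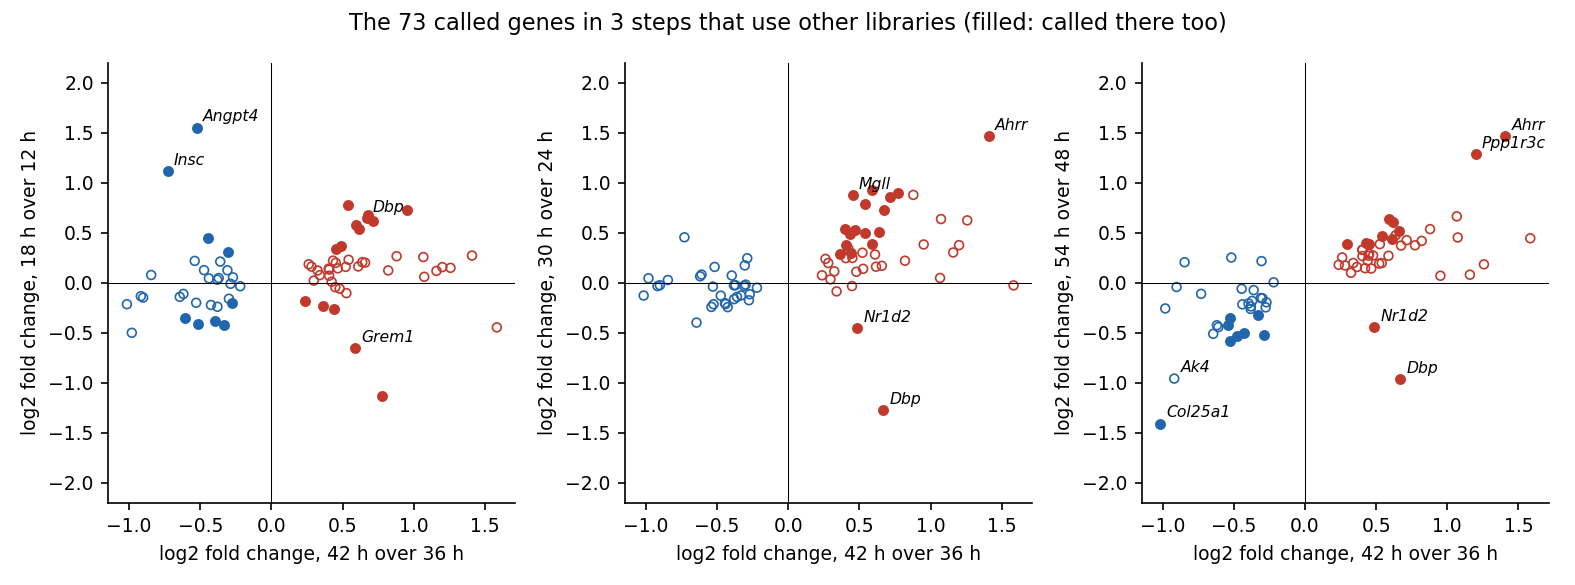
The 73 genes called at 42 h against 36 h, with their log2 fold change in that step on the x axis and in the steps 18 h over 12 h, 30 h over 24 h and 54 h over 48 h on the y axes, red for higher and blue for lower at 42 h, filled where also called in the other step. At 54 h over 48 h most points lie in the quadrants of equal sign, with Dbp and Nr1d2 below 0, whereas at 18 h over 12 h Dbp lies above 0 and Angpt4, Insc and Grem1 lie in the opposite quadrants.

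**Figure D5:**
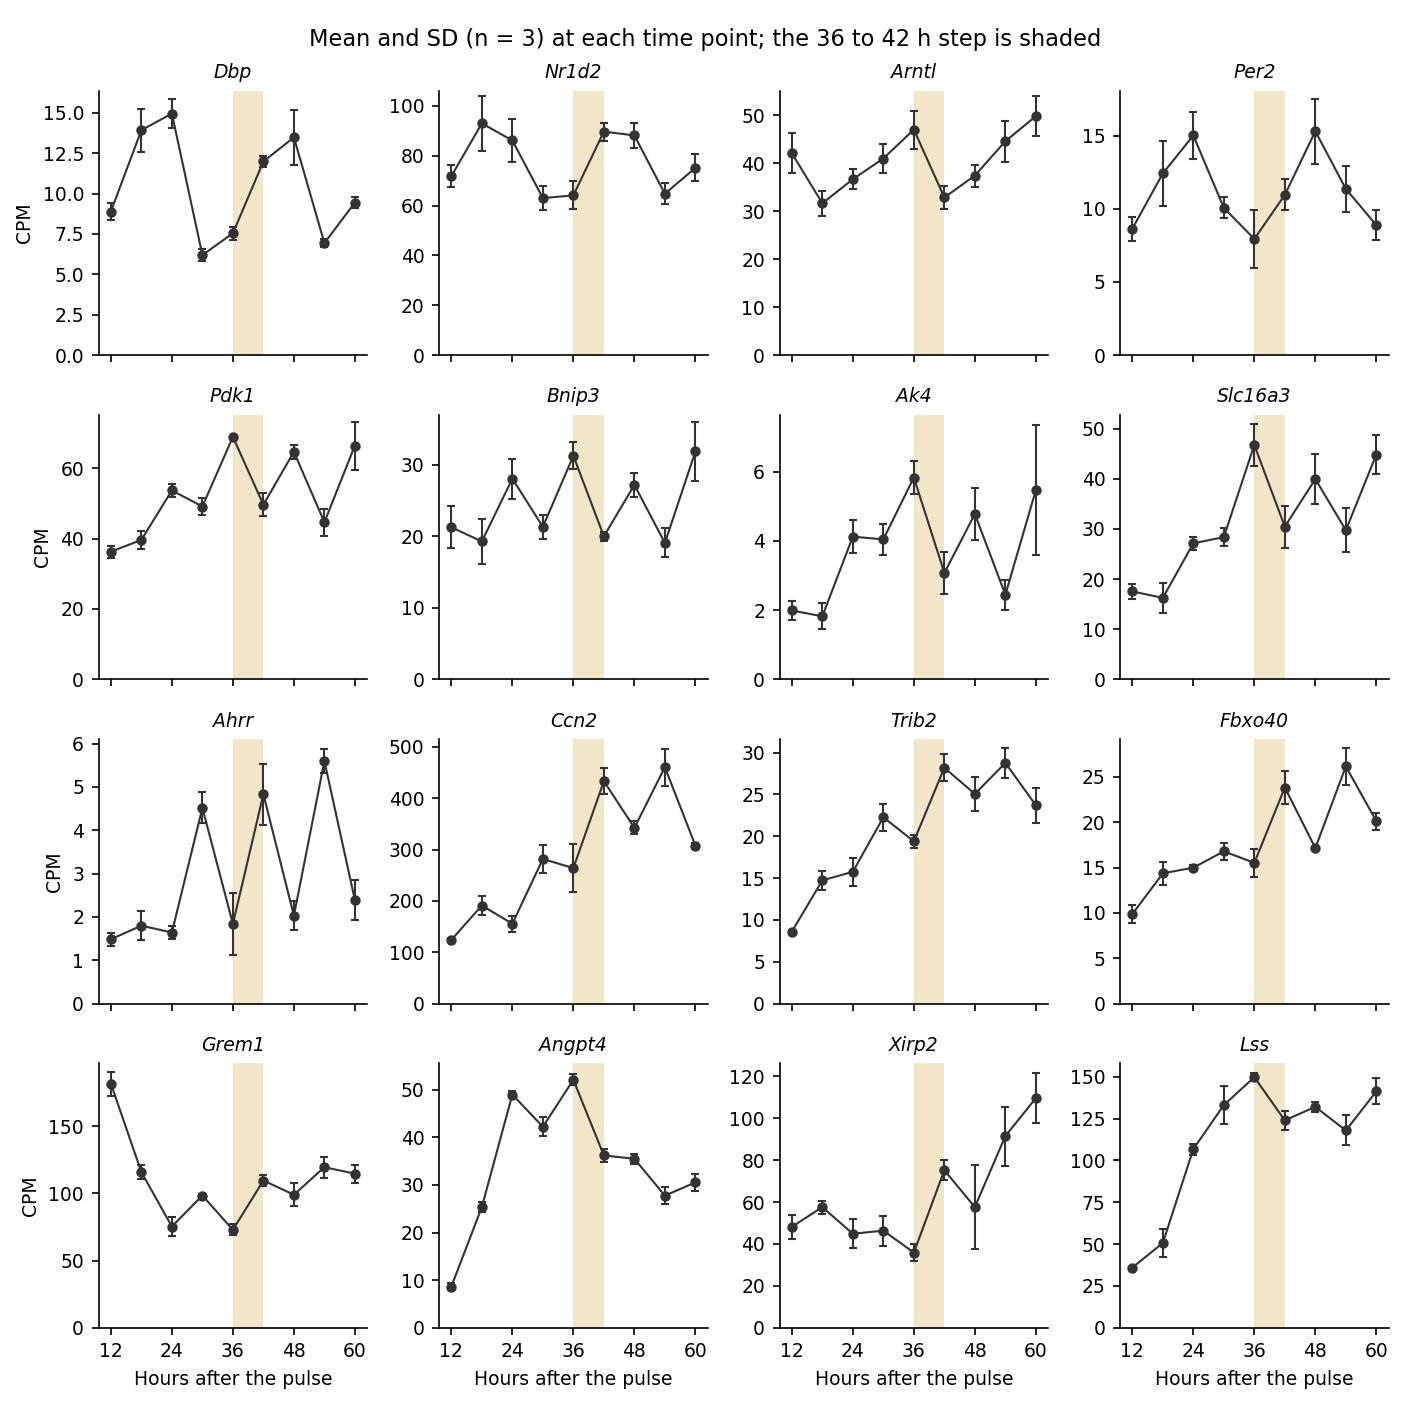
Mean level in CPM with SD (n = 3) of 16 genes at the 9 time points from 12 to 60 h (x axis), with the interval from 36 h to 42 h shaded. Dbp has means of 8.88 ± 0.552, 13.9 ± 1.33, 15 ± 0.925, 6.19 ± 0.376, 7.54 ± 0.415, 12 ± 0.322, 13.5 ± 1.69, 6.93 ± 0.248 and 9.44 ± 0.318 CPM, high at 18 and 24 h and again at 42 and 48 h, whereas Ahrr has 4.52 ± 0.356, 1.84 ± 0.718, 4.83 ± 0.703, 2.03 ± 0.337, 5.59 ± 0.271 and 2.39 ± 0.469 CPM from 30 h to 60 h and alternates between neighbouring time points.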

How the data were processed

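RNA-seq of 27 C2C12 libraries was used, with 6 of them in the comparison of 42 h with 36 h. The deposited table holds raw counts by the authors, without normalization, for 20446 Ensembl genes. Trim Galore 0.4.0, cutadapt 1.9.1, featureCounts and the build mm10 are named in the submitters' processing notes. Not given in the sources used here are the aligner, the annotation release and how featureCounts was set. Names and positions came from GENCODE M21, which matched 20318 genes.

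The filter on low counts was filterByExpr of edgeR, at a minimum of 10, which kept 12687 genes. Libraries of 15.2 to 26.6 M counts were scaled by TMM. The quasi-likelihood F test used a model with 1 level per time point over all 27 libraries (18 residual degrees of freedom) with Benjamini-Hochberg adjustment over all genes tested, called at an adjusted p under 0.05, and SE are Wald SE of the fit. CPM were computed from these counts and the TMM-scaled library sizes, and the prior count for log values was 2. Tools were edgeR 4.0.16, DESeq2 1.42.0 and limma 3.58.1 in R 4.3.3, and numpy 2.4.6, pandas 2.3.3 and matplotlib 3.10.9 in Python 3.11.15, and the test was checked on simulated data. Deeper counts give smaller errors, and the number of libraries limits the rest.

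Named by rule were the 12 genes with the largest fold change in each direction among called genes whose mean reached 1 CPM and whose groups did not overlap, all clock genes, up to 4 genes by p in each of 36 lists, and the 6 with the smallest p for the difference between steps. List genes are named for lists with a call and for lists that leaned one way, and the other lists are given by counts or left out. Some genes that meet the rule or are on the lists are not reported here, while counts include all genes tested. Other called genes were chosen after their values were seen, such as Prkg2, Trib2, Fbxo40 and Ddx17. The comparison, lists and members were chosen with earlier results of these data known. Promoter windows came from RefSeq on GRCm38.p6. Chi-square over degrees of freedom between replicates was 9.88 to 25.6, so no library was a copy of another.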

Additional observations from a re-analysis of the deposited data

Results flagged for a closer look

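For the named genes below, the change at 42 h against 36 h differed from that at 18 h against 12 h by the test of the difference (edgeR, adjusted p under 0.05). The values are differences of log2 fold changes, the later step minus the earlier one. For genes called at 42 h, they include the change by which those genes were called. Groups of 3 libraries are too small for a test of single outlying libraries.

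Among genes called at 42 h, the difference was -2.08 for Angpt4, -1.85 for Insc, -0.92 for Spon2, -0.80 for Col25a1, -0.76 for Tgm2, -0.62 for Adamts4, -0.60 for Pdk1, -0.48 for Smad3, -0.44 for Rflnb, -0.42 for Spry1 and -0.33 for Acsl6. It was 1.24 for Grem1, 0.70 for Prkg2, 0.59 for Slc20a1, 0.54 for Nrap, 0.49 for Lmod2, 0.45 for Tbc1d4 and 0.42 for Txnrd1. Grem1 was called higher at 42 h against 36 h and lower at 18 h against 12 h, and Angpt4, Insc and Adamts4 the other way round. Prkg2, Slc20a1 and Txnrd1 also changed direction with a call in each step (at 18 h against 12 h -0.26, -0.23 and -0.18).

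Among genes not called at 42 h, cholesterol synthesis differed by -0.77 for Lss, -0.68 for Hsd17b7, -0.62 for Fdft1 and -0.60 for Sqle, all 4 of them called higher at 18 h against 12 h (0.49, 0.38, 0.37 and 0.43). The difference was -1.48 for Cilp, -1.21 for Aspm, -1.09 for Cenpf, -0.86 for Srpx2, 1.17 for Timp1, 0.48 for Gclc and 0.42 for Myh4.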

How the results depend on the processing

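Against 43 genes higher and 30 lower at 42 h, DESeq2 called 72 and 47 (42 and 29 of the original genes among them), an adjusted p under 0.01 left 23 and 14, and a fold of at least 1.5 left 20 and 9. The 6 libraries alone gave 1 and 1. Leaving out 1 of the 6 gave 23 to 30 higher and 14 to 19 lower. limma-voom gave 48 and 31, median of ratios scaling 43 and 33, no filter 31 and 26, and a filter of mean 1 CPM 44 and 33. Without the 9 libraries numbered 2, chosen after the data were seen, 2 and 1 were called (Xirp2, Grem1 and Tgm2). In that fit 364 genes were called at 18 h against 12 h (645 with all libraries), 121 for the difference between steps (322) and 53 for alternate collections (193).

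Replicate numbers are shared by the groups. Deviations of same-numbered libraries from their group means correlated at 0.0276, 0.348 and 0.331 for numbers 1 to 3. Pairs of unlike number lay between -0.350 and 0.0792, so numbers 2 and 3 were above all of them and number 1 was not. What the number marks is not in the labels, and the main fit did not use it. Any effect shared by a number is thus part of the spread in that fit. With the replicate number as a block, 179 genes were higher and 124 lower, the original 73 among them, and 1647 genes were called at 18 h against 12 h, 976 for the difference and 923 for alternate collections. Of 53 named genes not called, 21 were called with this block, in the direction given (Per2, Per3, Tef, Pfkl, Fdft1, Hsd17b7, Lss, Il1rl1, Ier3, Crim1, Cyp1b1, Myog, Myf6, Myh4, Col8a1, Timp3, Timp1, Col8a2, Mcam, Inhba and Inhbb). With that block in the 6 libraries alone, 60 and 37 were called.

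Of 106 named genes, 99 kept their sign in every alternative, and all 53 that were called did. Signs turned for 7 uncalled genes, of which Hlf had the widest range. Without single libraries, Cenpf lay between -0.0592 and 0.0469, Timeless between -0.0158 and 0.164, Bhlhe41 between -0.0351 and 0.123, Clock between -0.0687 and 0.0589, Hlf between -0.153 and 0.793, Rorb between -0.0925 and 0.319 and Ciart between -0.213 and 0.234. Ciart was at 0.0111 with limma-voom, and without the libraries numbered 2 Cenpf was at 0.0040. The cause of these shifts was not tested, and fewer libraries leave less power.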
